A study of Mus musculus with 6 samples.

Results

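Wnt3a and 9 other genes of the Wnt ligand family (Wnt3, Wnt8a, Wnt5a, Wnt5b, Wnt11, Wnt2b, Wnt4, Wnt6 and Wnt10a) were followed in the node and streak tissue of mouse embryos that lacked Wnt3a function and of wild-type embryos. The members were all probe sets that the array annotation assigns to exactly 1 of these 10 symbols, which gave 16 of the 45037 probe sets tested: 4 for Wnt5a, 2 each for Wnt5b, Wnt4 and Wnt6, and 1 for each of the other 6 genes. The 10 genes are among 18193 with at least 1 probe set of their own. Signals are the deposited linear intensities, and differences are taken on the log2 scale, null minus wild type. There were 3 Wnt3a null pools and 3 wild-type pools, each from 3 embryos of matched stage on a mixed C57BL/6 and 129/Sv background, between embryonic days 7.75 and 8 with 0 to 2 somites. The labels describe the null allele no further. Each pool was amplified RNA hybridised to 1 Affymetrix Mouse Genome 430 2.0 array, so the spread between arrays is a spread between pools, and the variation of single embryos is averaged within them. In dissected tissue, fewer cells of a type and less RNA per cell cannot be told apart.

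Wnt ligands are secreted, lipid-modified proteins that bind Frizzled receptors. With the co-receptors Lrp5 and Lrp6 they stabilise beta-catenin, which switches on target genes with Tcf and Lef factors. Other ligands, of which Wnt5a, Wnt5b and Wnt11 are the usual examples, act largely without beta-catenin, through Ror2, Ryk and the planar polarity machinery, and guide cell movement. In the mouse gastrula Wnt3 is needed to form the primitive streak, Wnt3a is needed for the posterior body axis and paraxial mesoderm, and Wnt5a for axis elongation.

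The tissue carried markers of the streak, which its label names. The streak and posterior progenitor gene Nkx1-2 had signals of 11376 to 16391 in null pools, against 14974 to 17845 in the wild type. Summed signals of the 10 streak markers were 22660 to 25309 in null pools, against 29225 to 32956 in the wild type. Nkx1-2, whose own groups overlapped, made up most of each sum. Of 7 node and notochord markers 6 were measured. Their sums were 904 to 1780 in null pools, against 1103 to 2842 in the wild type, with pool 2 the lowest of each genotype. Some of them lay below the median signal, so how much node each pool held is not known. All pools also carried endoderm: the 5 visceral endoderm markers, which include Afp and Ttr, summed to 32013 to 46170 in null pools, against 26129 to 65844 in the wild type. Median array signals were 73.6 to 86.1. Wild-type pool 1 differed from the other 5 pools in sex composition, with a Y-linked Eif2s3y signal of 4.31 against 1053 to 1788. The Gapdh 3' to 5' signal ratio can shift with RNA integrity and with the amplification of the RNA. It did not overlap between genotypes, at 2.09 to 2.39 in the null and 2.51 to 3.00 in the wild type. That of beta-actin overlapped.

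Stretches upstream of the transcription start are shown for Wnt3a, the mutated gene, for the 3 annotated starts of Wnt5b (A, B and C), whose groups did not overlap on either of its probe sets, and for start A of Wnt11, since these include both member stretches with a Tcf and Lef motif. Each is the 250 bases before the start, 5′ to 3′ on the gene's strand, from RefSeq on GRCm38.p6. Capitals mark a match, on either strand, to the letters CTTTG followed by a pair of bases that are each A or T.
Wnt3a, chr11:59290752-59291001, - strand: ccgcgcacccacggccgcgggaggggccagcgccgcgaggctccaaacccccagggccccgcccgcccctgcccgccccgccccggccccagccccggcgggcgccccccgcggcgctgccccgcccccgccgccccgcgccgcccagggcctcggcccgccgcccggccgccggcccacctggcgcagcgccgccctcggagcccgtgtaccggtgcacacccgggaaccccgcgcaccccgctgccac
Wnt5b start A, chr6:119544348-119544597, - strand: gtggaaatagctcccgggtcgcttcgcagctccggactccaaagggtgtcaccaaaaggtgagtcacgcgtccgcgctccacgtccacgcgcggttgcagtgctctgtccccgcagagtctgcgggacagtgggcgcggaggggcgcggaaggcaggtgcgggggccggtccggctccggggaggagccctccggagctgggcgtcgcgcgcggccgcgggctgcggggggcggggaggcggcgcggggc
Wnt5b start B, chr6:119467212-119467461, - strand: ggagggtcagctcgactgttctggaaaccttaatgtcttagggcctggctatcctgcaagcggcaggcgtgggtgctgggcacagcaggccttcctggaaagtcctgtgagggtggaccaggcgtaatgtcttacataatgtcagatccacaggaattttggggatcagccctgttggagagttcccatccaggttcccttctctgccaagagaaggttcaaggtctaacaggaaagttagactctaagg
Wnt5b start C, chr6:119449387-119449636, - strand: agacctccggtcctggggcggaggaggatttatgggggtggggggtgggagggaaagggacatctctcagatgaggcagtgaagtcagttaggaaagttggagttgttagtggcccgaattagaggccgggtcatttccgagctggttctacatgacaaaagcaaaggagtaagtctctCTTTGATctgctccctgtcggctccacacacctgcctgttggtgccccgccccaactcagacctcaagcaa
Wnt11 start A, chr7:98834862-98835111, + strand: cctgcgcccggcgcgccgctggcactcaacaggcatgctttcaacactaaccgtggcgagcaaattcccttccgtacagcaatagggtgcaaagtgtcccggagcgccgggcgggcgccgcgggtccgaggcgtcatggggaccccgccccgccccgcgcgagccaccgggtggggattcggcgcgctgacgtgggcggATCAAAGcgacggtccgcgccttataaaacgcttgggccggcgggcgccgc
RefSeq windows were matched for 7 of the 10 genes (10 windows). The motif was found in 2 of the 10: as CTTTGAT at Wnt5b start C, 71 bases upstream, and as ATCAAAG, the same motif on the other strand, at Wnt11 start A, 51 bases upstream. Of all 32851 promoter stretches of this length, 14.8% held a match. The Wnt3a stretch, with 87.6% G and C against a median of 52.4% over all stretches, held none. A match describes the letters only.

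Wnt5b signals were lower in the null pools on both probe sets, at 0.56 and 0.57 times the wild-type level, while the streak ligands Wnt3a and Wnt8a had overlapping signals in both genotypes. No member probe set passed the test. In limma over all 45037 probe sets, with Benjamini-Hochberg adjustment and a threshold of 0.05, 0 were called lower and 0 higher (0% in either direction), and the smallest adjusted p of a member was 0.88. At an unadjusted p under 0.05, the same limma fit had 993 probe sets lower (2.2%) and 1280 higher (2.84%), among them 3 members, all lower: both Wnt5b probe sets and 1 of Wnt5a. In 4 of the 16 member probe sets every null pool lay below every wild-type pool, and in 0 every null pool lay above. Over all probe sets these shares were 4.41% and 5.57%. By replicate number, the null pool was lower in all 3 pairs for 4 members (13.7% of all probe sets) and higher in all 3 for 1 (15%). The 4 belong to 3 genes, and probe sets of 1 gene share their transcript, so they are not 4 independent cases. The members were also chosen with earlier results of these data known, so their counts are no independent evidence. The log2 differences of the 16 had a median of -0.08, against 0.01 over all probe sets. Probe sets differ in brightness for the same amount of RNA, so levels are compared between pools only and not between genes.

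**Figure D1:**
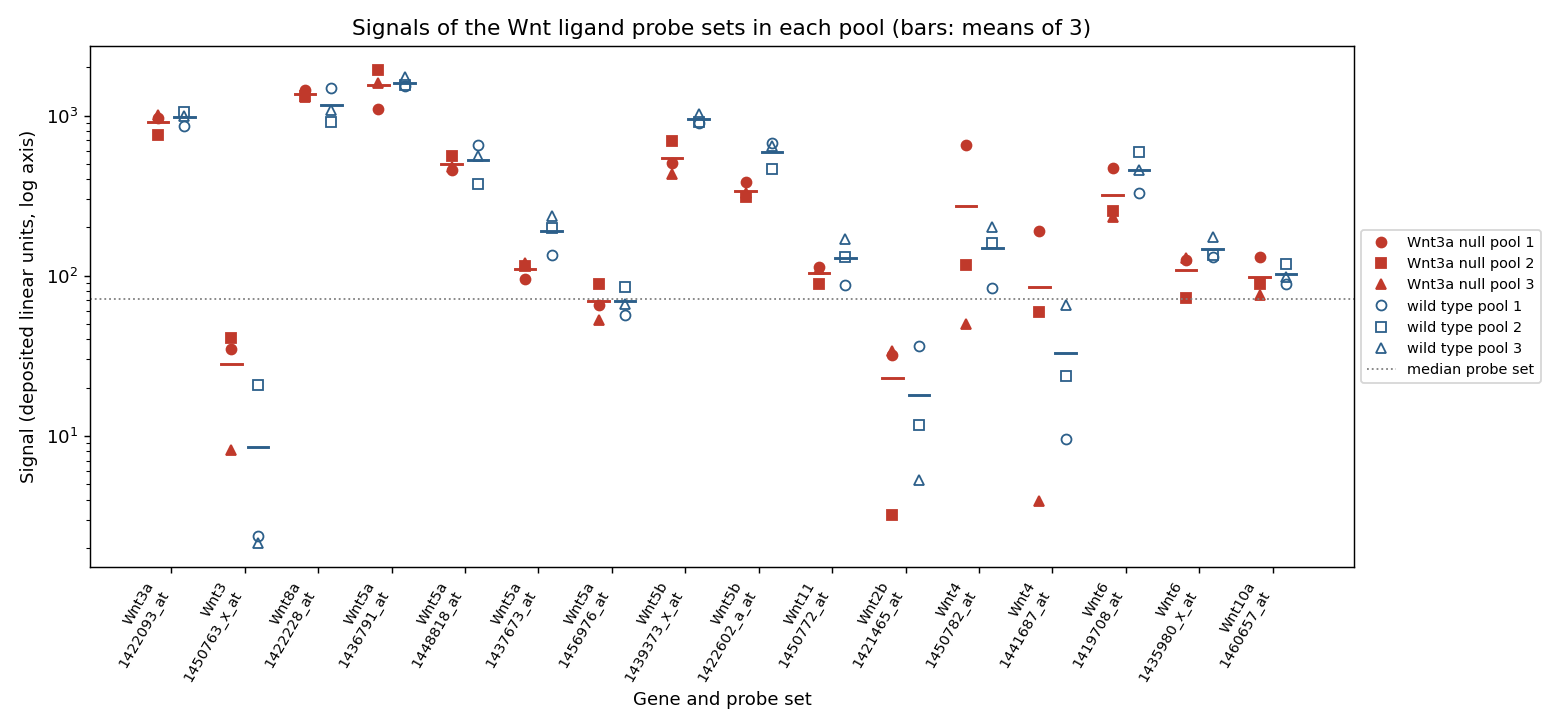
Signals of the 16 Wnt ligand probe sets in the 3 Wnt3a null pools (filled, red, left) and the 3 wild-type pools (open, blue, right) on a log axis, in deposited linear units. Bars are means of 3 pools and the dotted line is the signal of the median probe set. Both Wnt5b probe sets have all null pools below all wild-type pools, and Wnt4 has a single high null pool.

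Wnt3a, the ligand removed in the mutants, was read at overlapping signals in both genotypes. Its probe set 1422093_at gave 961, 761 and 1009 in null pools, against 864, 1058 and 996 in the wild type. The lowest value of the 6 was in null pool 2. The log2 difference was -0.10 with a 95% interval of -0.65 to 0.45 (limma, adjusted p = 1.00). On the linear scale this interval runs from 0.64 to 1.36 times the wild-type level. The sources used here do not say where in Wnt3a the null allele is altered, and RNA with an altered part can still be read by a probe set elsewhere. This signal therefore does not check the labels. The genes whose log2 signals ran most alike to Wnt3a over the 6 arrays were Itch (Pearson r = 0.995), Fancd2 (0.989) and Atp1b1 (0.987). They were picked as the highest of 19340 probe sets with 1 symbol and a mean log2 signal at or above the median. Of these, 100 had an r above 0.9. The ranking is a description only, and whether these genes share regulation with Wnt3a was not tested.

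Wnt8a is a ligand of the early streak that acts through beta-catenin. Its probe set 1422228_at gave 1444, 1323 and 1301 in null pools, against 1491, 907 and 1086 in the wild type. The null pools lay close together within the wild-type range. The log2 difference was 0.25, with an interval of -0.38 to 0.89. It was 0.45 without wild-type pool 1 and 0.09 without wild-type pool 2.

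Wnt3, the closest relative of Wnt3a, was among the dimmest probe sets measured. Probe set 1450763_x_at gave 34.6, 41.1 and 8.21 in null pools, against 2.38, 20.9 and 2.13 in the wild type. The null value was the higher of its number in all 3 pairs, yet the groups overlapped, and 87.9% of probe sets had a higher mean log2 signal. Its log2 difference of 2.26 had an interval from -0.50 to 5.03 (limma, adjusted p = 1.00), and on the log2(signal + 50) scale the difference was 0.40. At these signals the interval spans 0.71-fold to 32.6-fold of the wild-type level.

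Wnt5b, which acts mainly on cell movement and differentiation, had the lowest values relative to wild type among the brighter members. Its probe set 1439373_x_at gave 503, 698 and 432 in null pools, against 900, 916 and 1026 in the wild type. Its other probe set, 1422602_a_at, gave 382, 308 and 326 in null pools, against 672, 466 and 646 in the wild type. On both, the groups did not overlap and each null pool was below the wild-type pool of its number. The suffixes x_at and a_at mark probe sets that can also read related sequences or several transcripts of the gene.

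The means of 1439373_x_at were 544 ± 138 in null pools, against 947 ± 68.6 in the wild type (SD, n = 3 each). The means of 1422602_a_at were 339 ± 38.9 in null pools, against 595 ± 112 in the wild type (SD, n = 3 each). The wild-type signal was 1.77 and 1.74 times the null signal. The log2 differences were -0.83 (SE 0.25, interval -1.46 to -0.20) and -0.80 (SE 0.24, interval -1.40 to -0.20), with limma adjusted p = 0.88 for both and unadjusted p of 0.0190 and 0.0177. An exact two-sided permutation test of 3 against 3 gave p = 0.1 for each, the smallest it allows. By replicate number the differences were -0.84, -0.39 and -1.25 for 1439373_x_at and -0.81, -0.60 and -0.99 for 1422602_a_at.

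Wnt5b did not pass with the replicate number as a block either (limma, adjusted p = 0.84 and 0.83). With the block and eBayes trend and robust options, where 14 probe sets were called lower (0.0311%) and 8 higher (0.0178%), the adjusted p of the Wnt5b probe sets was 0.17 for each in limma. Leaving out any 1 array kept both differences negative, between -1.02 and -0.67 for 1439373_x_at and between -0.97 and -0.70 for 1422602_a_at. Marker sums of posterior tissue were lower in the null pools as well. The 5 presomitic mesoderm markers were Msgn1, Tbx6, Dll1, Hes7 and Mesp2. They summed to 4244 to 4937 in null pools, against 6572 to 7556 in the wild type, with a median log2 difference of -0.75. Dll1 made up most of each sum, at 2554 to 3416 in null pools, against 3842 to 5321 in the wild type. Of the 5, 4 were lower in value, of which Dll1 passed with the block, trend and robust options (limma, adjusted p = 0.046). Mesp2 went the other way, with a log2 difference of 1.25 and overlapping groups. The sums of the 10 streak markers, given above, also did not overlap. The median log2 difference of these markers was -0.58, with 8 of 10 lower in value. Singly, 4 of the 10 did not overlap, all lower in the null pools, against 4.56% of all genes. The marker lists were chosen with earlier results of these data known, so such counts are no independent evidence. The sums of the 5 heart and lateral plate markers did not overlap in the other direction. They were 2249 to 2780 in null pools, against 1073 to 1783 in the wild type. These markers had a median of 0.77, with 4 of 5 higher in value. Singly, only 1 of the 5 did not overlap, against 5.56% of all genes. The part of these markers and of the Gapdh ratio in the Wnt5b difference was not tested.

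Wnt5a, the close relative of Wnt5b, had negative log2 differences on all 4 probe sets, mostly near 0. The brightest, 1436791_at, gave 1095, 1935 and 1605 in null pools, against 1527, 1556 and 1731 in the wild type. Null pools 1 and 2 lay on either side of the wild-type range, and the log2 difference was -0.09 with an interval of -0.78 to 0.59. Probe set 1448818_at gave 454, 556 and 479 in null pools, against 653, 374 and 561 in the wild type. Its log2 difference was -0.06 with an interval of -0.76 to 0.64. Both bright probe sets thus had differences near 0, with wide intervals. Whether the 4 probe sets differ from each other was not tested.

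The dimmer 1437673_at gave 94.7, 115 and 120 in null pools, against 134, 199 and 236 in the wild type. Here the groups did not overlap, and the log2 difference was -0.75 (interval -1.46 to -0.04; limma, adjusted p = 0.99, unadjusted p = 0.0411). The faintest, 1456976_at, had 52.9 to 89.0 in null pools, against 56.9 to 84.7 in the wild type. Its log2 difference was -0.02 (interval -0.75 to 0.71). The difference of 1437673_at was 0.66 and 0.69 below those of the bright pair on the log2 scale, and whether it reads another transcript end was not tested.

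**Figure D2:**
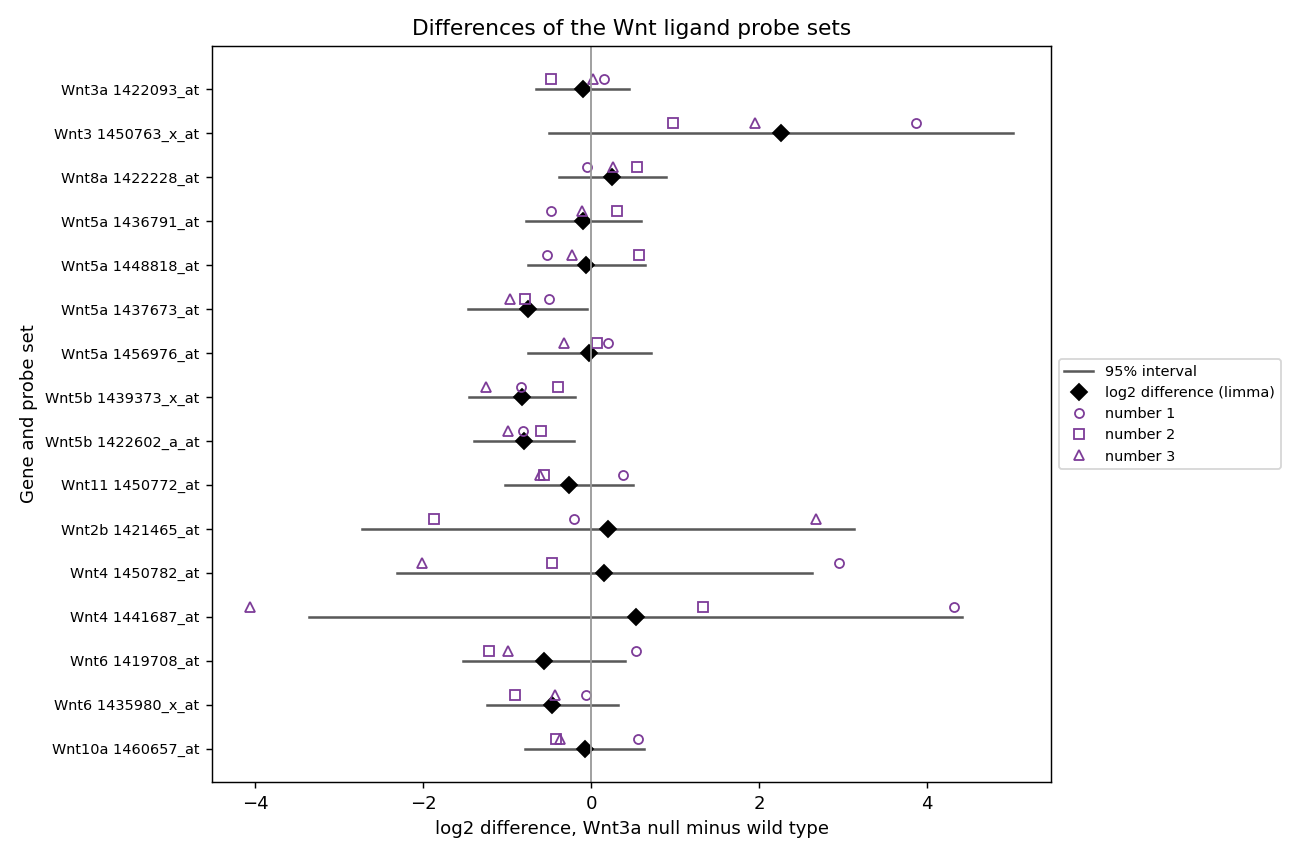
Log2 differences of the 16 probe sets, Wnt3a null minus wild type, with 95% limma intervals (diamonds and lines) and the differences by replicate number (open symbols). Only the 2 Wnt5b probe sets and Wnt5a 1437673_at have intervals below 0, before adjustment. The Wnt3, Wnt2b and Wnt4 intervals are wide.

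Wnt11 is a ligand of convergent extension and heart and kidney development. Its probe set 1450772_at gave 114, 88.3 and 111 in null pools, against 87.7, 131 and 168 in the wild type. The ranges overlapped, and the log2 difference was -0.26 with an interval of -1.03 to 0.51. It was -0.52 without wild-type pool 1, -0.15 without null pool 2 and -0.04 without wild-type pool 3.

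Wnt6 and Wnt10a lie side by side on chromosome 1 and are best known from epithelia and skin appendages. Wnt6 1419708_at gave 472, 253 and 231 in null pools, against 326, 588 and 459 in the wild type, a log2 difference of -0.56 with an interval of -1.52 to 0.41. Null pool 1 lay within the wild-type range and null pools 2 and 3 below it. The fainter Wnt6 probe set, 1435980_x_at, gave 125, 72.2 and 129.7 in null pools, against 130.4, 135 and 175 in the wild type. These groups did not overlap, by a margin of less than 1 signal unit, and the log2 difference was -0.46 with an interval of -1.24 to 0.32 (limma, adjusted p = 1.00). Wnt10a 1460657_at gave 132, 88.3 and 76.3 in null pools, against 89.2, 118 and 98.7 in the wild type, overlapping, with a log2 difference of -0.08 (interval -0.79 to 0.63). Leaving out 1 array moved the Wnt6 differences between -0.88 (without null pool 1) and -0.36 (without wild-type pool 2) for 1419708_at, and between -0.61 (without null pool 3) and -0.19 (without null pool 2) for 1435980_x_at. The 5 surface ectoderm markers overlapped as well, with sums of 5823 to 6319 in null pools, against 5057 to 6371 in the wild type.

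Wnt4, a ligand of kidney and gonad development, was the most variable member above the median signal. Probe set 1450782_at gave 653, 116 and 49.6 in null pools, against 84.0, 160 and 201 in the wild type. Probe set 1441687_at lay below the median signal, and 67.8% of probe sets had a higher mean log2 signal. It gave 190, 59.7 and 3.94 in null pools, against 9.54, 23.6 and 65.6 in the wild type. On both, null pool 1 was the highest of the 6 and null pool 3 the lowest.

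The log2 differences of Wnt4 were 0.16 and 0.53, with intervals of -2.31 to 2.63 and -3.36 to 4.42 (limma, adjusted p = 1.00 for both). Without null pool 1 they were -0.87 and -0.68, and without wild-type pool 1 -0.20 and -0.15. Null pool 1 also had the highest summed neural plate markers, at 5132, with 3070 and 3850 for null pools 2 and 3, against 2186 to 3217 in the wild type. Otx2, an anterior neural and endoderm gene, was at 1367 there and at 216 and 468 for null pools 2 and 3, against 60.7 to 129 in the wild type, and it passed with the block, trend and robust options (limma, adjusted p = 0.037). Null pool 3, the lowest of the 6 for Wnt4, was the next highest for both the neural plate sum and Otx2. The heart and lateral plate sum was also highest in null pool 1, at 2780. The part of such tissue in the Wnt4 values was not tested.

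Wnt2b, a ligand found in lateral plate mesoderm, was below the median signal. Its probe set 1421465_at gave 31.9, 3.22 and 34.1 in null pools, against 36.6, 11.7 and 5.33 in the wild type. The values of both genotypes scattered over the same range. The log2 difference of 0.20 had an interval from -2.72 to 3.13.

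**Figure D3:**
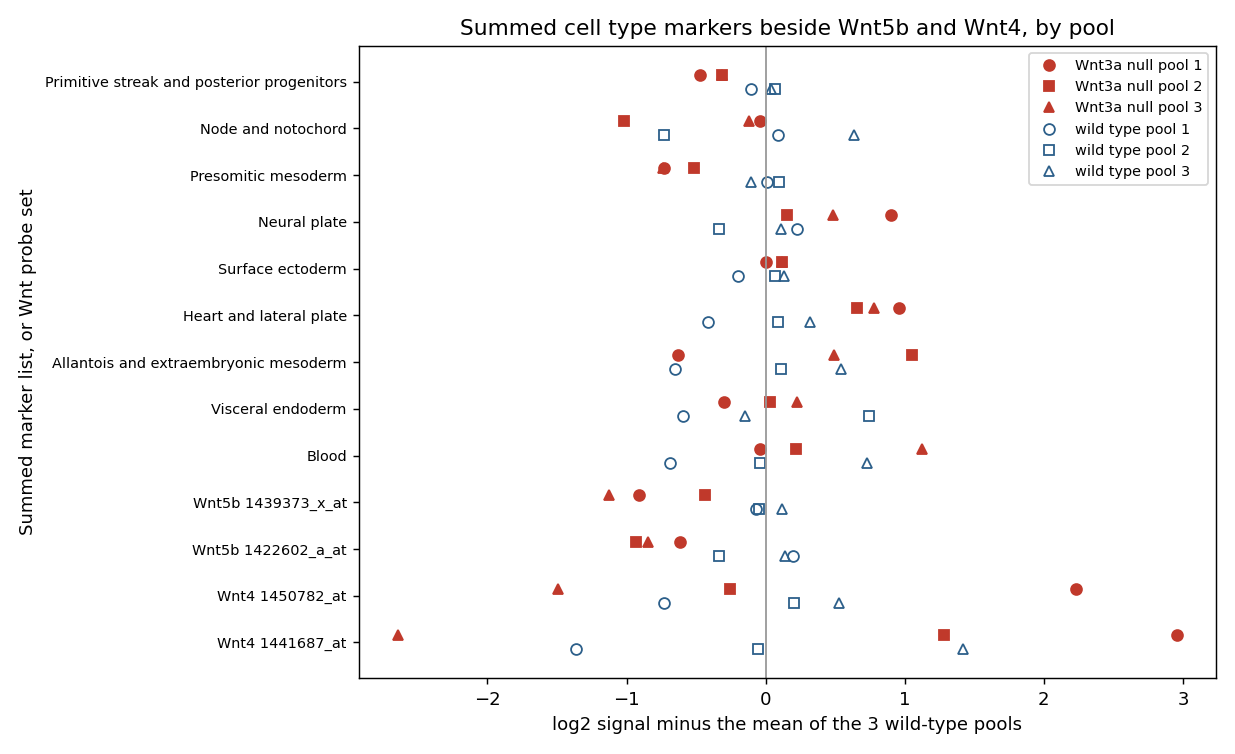
Summed signals of 9 cell type marker lists, and the signals of both Wnt5b and both Wnt4 probe sets, in each Wnt3a null pool (filled, red, upper row) and wild-type pool (open, blue, lower row), as log2 minus the wild-type mean. Wnt5b and the sums of presomitic mesoderm and streak markers have the null pools below the wild-type pools. The sum of heart and lateral plate markers has them above. Null pool 1 is highest for Wnt4 and for neural plate markers, while null pool 3 is lowest for Wnt4 and next highest for neural plate markers.

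The 9 remaining Wnt ligand genes (Wnt1, Wnt2, Wnt7a, Wnt7b, Wnt8b, Wnt9a, Wnt9b, Wnt10b and Wnt16) were all measured and 0 passed, with 5 lower and 4 higher in value and a median log2 difference of -0.30, which was -0.03 without null pool 3 and 0.10 without wild-type pool 3. For these lists each gene stands in by its brightest probe set, and over all 18193 genes the median was 0.00, 0% were called, every null pool lay below every wild-type pool in 4.56% and above in 5.56%. The smallest p belonged to Wnt10b, with 24.4 ± 4.18 in null pools, against 59.4 ± 32 in the wild type (SD, n = 3 each). Wnt2, at 94.9 ± 7.02 in null pools, against 118 ± 15.5 in the wild type (SD, n = 3 each), was the 1 gene of the list without overlap. Wnt9a, the chromosomal neighbour of Wnt3a, had signals of 44.6, 38.4 and 22.2 in null pools, against 17.1, 57.4 and 76.2 in the wild type. Wnt9b, the neighbour of Wnt3, had 43.5 to 59.7 in null pools, against 12.3 to 116 in the wild type. Neither neighbour separated the genotypes.

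Of 6 genes for the acylation and release of Wnt proteins, 0 passed, 4 were lower and 2 higher in value and the median was -0.24. That median was -0.02 with all probe sets of a gene averaged, -0.12 with the filter at the median signal and -0.08 without wild-type pool 3. Porcn, the acyltransferase that makes Wnt proteins active, had 263, 339 and 338 in null pools, against 443, 396 and 387 in the wild type. Its groups did not overlap, and the log2 difference was -0.39 (limma, adjusted p = 1.00). Tmed2, a cargo receptor of the early secretory pathway, was lower in value at dim signals, with 28.9 ± 16.8 in null pools, against 68.9 ± 24.8 in the wild type (SD, n = 3 each).

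Among the receptors 0 of 10 Frizzled genes passed, with 4 lower and 6 higher in value and a median of 0.11. Fzd7 had 1858 ± 202 in null pools, against 1234 ± 58.0 in the wild type, and Fzd8, below the median signal, had 140 ± 21.7 in null pools, against 38.5 ± 30.8 in the wild type (SD, n = 3 each). Of the 10, 3 did not overlap, Fzd7 and Fzd8 among them, all higher in the null pools, against 5.56% of all genes. The list was chosen with earlier results of these data known, so this count is no independent evidence. Of 6 co-receptors and alternative receptors 0 passed, with 3 lower and 3 higher in value and a median of 0.02, which ranged from -0.16 without null pool 1 to 0.27 without null pool 2. Ror2, a receptor of Wnt5a, gave 1833, 2462 and 2072 in null pools, against 2942, 2950 and 2819 in the wild type. Those groups did not overlap, with a log2 difference of -0.46 (limma, adjusted p = 1.00). Ptk7, a pseudokinase of planar polarity, had 95.7 ± 23.1 in null pools, against 315 ± 212 in the wild type (SD, n = 3 each).

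Of 11 planar polarity genes, which act downstream of Wnt5a-type ligands, 0 passed, with 8 lower and 3 higher in value and a median of -0.18, which was -0.03 without null pool 2. The smallest p belonged to Dvl3, an intracellular transducer, at dim signals of 4.87 ± 1.12 in null pools, against 13.4 ± 3.54 in the wild type, and the next to Prickle2, at 157 ± 8.60 in null pools, against 285 ± 121 in the wild type (SD, n = 3 each). Of 17 secreted modulators 0 passed, with 10 lower and 7 higher in value and a median of -0.05; Sfrp5 and Notum had the smallest p, with 249 ± 30.8 and 175 ± 48.7 in null pools, against 89.8 ± 24.5 and 513 ± 81.5 in the wild type (SD, n = 3 each). Of 14 measured feedback and target genes 0 passed in this fit, with 13 lower and 1 higher in value and a median of -0.79. Cdx1, at -1.26, and Axin2, at -1.05, had the smallest p. With the replicate block and eBayes trend and robust options 4 of the 14 passed in limma, all lower: Cdx1 (adjusted p = 0.0035), Axin2 (0.0083), Cdx4 (0.0083) and Sp5 (0.027). The median was -0.52 with all probe sets of a gene averaged. That list was composed with its direction in these samples known, so its count is no independent evidence.

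**Figure D4:**
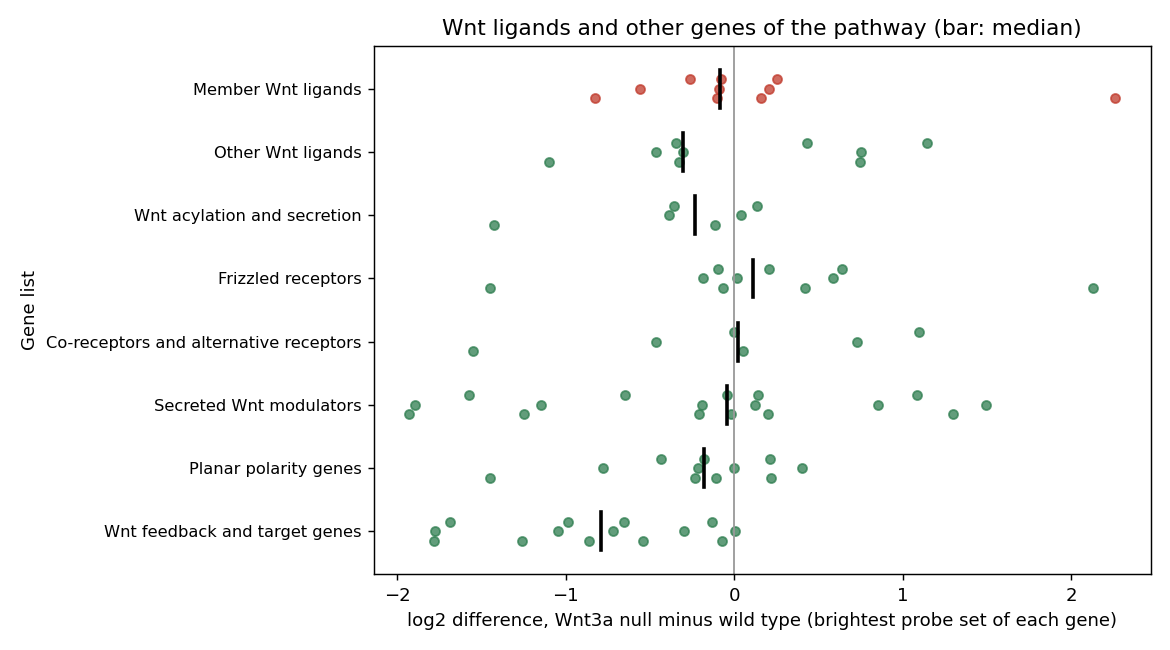
Log2 differences, Wnt3a null minus wild type, of the brightest probe set of each gene for the 10 Wnt ligands (top, red) and 7 lists of other Wnt pathway genes (green), with the median of each list as a bar. The ligands lie on both sides of 0, with Wnt3 at 2.26 and Wnt5b at -0.83 as the ends. The Wnt3 value rests on dim signals and has an interval of -0.50 to 5.03. Of the feedback and target genes 13 of 14 lie below 0.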

How the data were processed

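Each embryo gave 30 to 50 ng of total RNA for a first amplification, per the labels' protocols; amplified RNA of 3 embryos was pooled (600 ng) for the second cycle, and each pool was hybridised to 1 array. The authors deposited 1 linear intensity per probe set and array. The submitters' processing notes name RMA, but the deposited intensities are linear and each array has a mean of 500 after trimming 2% at each end, and no source used here gives the step that made them. No detection calls were used. The number of arrays limits the precision.

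The values were turned to log2 without a floor. Of 45101 probe sets, 64 are controls and were omitted. Of the rest 34945 have 1 symbol, 932 several and 9160 none listed. The comparison was a two-sided limma 3.58.1 fit in R 4.3.3 over single probe sets, using lmFit and plain eBayes. The members and lists were chosen with earlier results of these data known. Named beside the members were, per list, those passing or otherwise the 2 smallest p, and the 3 genes most alike to Wnt3a. Msgn1, Tbx6, Dll1, Hes7, Mesp2, Nkx1-2, Afp, Ttr, Otx2, Cdx4, Sp5, Eif2s3y, Wnt9a and Wnt9b were named beyond that rule, after their values were seen.

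Both genotypes have replicates 1, 2 and 3. Deviations from the genotype means correlated between arrays of one number at 0.422, 0.454 and 0.282 over 18088 probe sets whose mean log2 exceeded 7, past the bound of 0.1, and at 0.0537, 0.0524 and 0.0338 over all probe sets, below it. The fit has no block. Since the brighter probe sets passed the bound, values with the number as a block are given for some results. The block alone changed no call. The named genes that passed did so with the block and the trend and robust options together. What a number stands for is not in the labels. The fit was tested on simulated data, where it missed most of the planted changes. A probe set that did not pass can therefore still differ. The alternatives were the block, trend and robust options, log2(signal + 50), median centring, quantile normalization, a filter at the median signal, the brightest or mean probe set per gene, array weights, a threshold of 0.1 and leaving out each array.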

Additional observations from a re-analysis of the deposited data

How the results depend on the processing

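None of the 16 probe sets passed under any alternative run. Over all probe sets 0 were called lower and 0 higher, also with the replicate block alone and at a threshold of 0.1. With trend and robust options 1 was lower, and with these and the replicate block 14 were lower and 8 higher. Both Wnt5b probe sets, Wnt5a 1437673_at, both Wnt6 probe sets, Wnt11, Wnt8a and Wnt3 kept their direction under every alternative that gave them a value. The filter at the median signal leaves out Wnt3. The setting with the brightest probe set per gene leaves out the dimmer ones, and the mean per gene averages them in. With array weights Wnt4 1450782_at turned to -0.24 and 1441687_at to -0.28. Leaving out 1 array turned others: Wnt3a ranged from -0.18 to 0.023, Wnt5a 1436791_at from -0.27 to 0.14, 1448818_at from -0.29 to 0.11 and 1456976_at from -0.22 to 0.16. Wnt2b ranged from -0.45 to 1.32, Wnt4 1450782_at from -0.87 to 0.99 and 1441687_at from -0.68 to 2.12, and Wnt10a from -0.30 to 0.090. The cause was not tested. Wnt3 stood at 0.40 on the log2(signal + 50) scale, where the added 50 exceeds its signals. The files hold no background signal, so how far dim probe sets stand above it is unknown.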
